A study of Rattus norvegicus with 16 samples.

Results

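The genes described here encode the non-collagenous backbone of basement membranes: the laminin chains Lama5, Lama4, Lamb1, Lamb2 and Lamc1, the nidogens Nid1 and Nid2, and the heparan sulfate proteoglycans Agrn (agrin) and Hspg2 (perlecan). They are taken from a list of symbols, with no threshold on a measured value. Of the 9 symbols, 8 were found among the 13222 genes of the expression table. Hspg2 was not found by symbol, but a row named AABR07073181.1 (ENSRNOG00000021437) carries a name that RefSeq lists as an older symbol of Hspg2. That row is reported beside the 8 genes and is not counted among them, since it may hold only part of the perlecan gene.

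The measurements are from poly(A) RNA of glomeruli sieved from the kidneys of 16 male Wistar rats of about 175 g, killed on day 11. The 4 control rats are labelled healthy. The other 12 rats were injected intravenously with puromycin aminonucleoside (PAN), a podocyte toxin used to model nephrotic syndrome, and were gavaged daily with sham vehicle (PAN group, 4 rats), with pioglitazone (4 rats) or with GQ-16 (4 rats). The series title calls both drugs PPARgamma agonists. By their labels both drug groups are PAN rats too. The labels give no dose, litter or batch and do not say what the controls were given. Rats are numbered 1 to 4 within a group in the order of their accessions, which pairs none of them. P-values measure only the spread between these rats, and in whole glomeruli more cells of a type and more RNA per cell cannot be told apart.

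A laminin is a cross-shaped trimer of an alpha, a beta and a gamma chain, and trimers polymerise into the sheet on which a basement membrane is built. In the mature glomerular basement membrane the main trimer is laminin-521, assembled from the chains encoded by Lama5, Lamb2 and Lamc1, which replaces laminin-511 (with the Lamb1 chain) as the glomerulus matures, while Lama4 is typical of endothelial and mesangial matrix. Nidogens bind the laminin gamma chain and connect it to type IV collagen, and agrin and perlecan carry the heparan sulfate chains of the membrane, with agrin the main one in the glomerular basement membrane and perlecan mostly in the mesangial matrix and Bowman's capsule.

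RefSeq promoters (assembly GRCr8, 250 bases before to 50 after the annotated start) were matched for 7 of the 9 symbols, and Lamb2 and Nid2 were not matched. The 4 printed here are those of the gene with the largest difference between PAN and control (Nid1), of a pair of laminin genes whose levels followed each other across the libraries (Lamc1 and Lama4), and of the beta chain whose mean lay below control in both drug groups while that of its alternative Lamb2 lay above it, neither called (Lamb1). Capitals mark, on either strand, the motifs searched: GGGCGG, to which Sp-family factors bind, the CCAAT box, the TATA box as TATAAA, the SMAD element CAGAC, the nuclear receptor half-site as AGGTCA, the AP-1 site as TGACTCA and the E-box as CACGTG.
Nid1, chr17:93069036-93069335, plus strand: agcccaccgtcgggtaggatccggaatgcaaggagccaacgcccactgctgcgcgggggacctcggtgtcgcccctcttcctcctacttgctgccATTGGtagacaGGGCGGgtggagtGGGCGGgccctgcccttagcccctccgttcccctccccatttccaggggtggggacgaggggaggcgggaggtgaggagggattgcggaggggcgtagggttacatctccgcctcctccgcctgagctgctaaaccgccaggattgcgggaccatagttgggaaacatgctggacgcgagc
Lamc1, chr13:68051937-68052236, minus strand: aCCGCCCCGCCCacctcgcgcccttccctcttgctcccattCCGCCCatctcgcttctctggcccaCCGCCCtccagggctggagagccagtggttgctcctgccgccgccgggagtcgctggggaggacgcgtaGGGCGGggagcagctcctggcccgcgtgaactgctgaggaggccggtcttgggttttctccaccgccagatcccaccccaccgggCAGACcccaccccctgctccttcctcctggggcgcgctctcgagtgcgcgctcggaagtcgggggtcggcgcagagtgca
Lama4, chr20:43946648-43946947, plus strand: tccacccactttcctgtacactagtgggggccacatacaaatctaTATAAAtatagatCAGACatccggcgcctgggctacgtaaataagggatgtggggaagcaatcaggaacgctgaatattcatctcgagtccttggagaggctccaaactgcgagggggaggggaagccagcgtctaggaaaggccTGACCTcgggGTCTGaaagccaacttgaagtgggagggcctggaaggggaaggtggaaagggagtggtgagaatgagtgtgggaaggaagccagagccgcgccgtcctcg
Lamb1, chr6:53562846-53563145, plus strand: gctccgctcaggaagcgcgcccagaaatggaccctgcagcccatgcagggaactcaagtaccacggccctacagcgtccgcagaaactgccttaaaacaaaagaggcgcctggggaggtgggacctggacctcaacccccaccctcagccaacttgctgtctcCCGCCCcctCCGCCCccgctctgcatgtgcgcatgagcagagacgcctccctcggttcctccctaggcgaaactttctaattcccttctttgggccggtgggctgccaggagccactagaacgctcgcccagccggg

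The Nid1 promoter holds GGGCGG 131 and 144 bases before the start and CCAAT on the reverse strand, and it was the only one of the 7 with CCAAT, which 37.5% of the 33469 RefSeq promoters hold. GGGCGG was found in 5 of the 7 (Lama5, Lamb1, Lamc1, Nid1 and Hspg2), against 33.1% of all promoters. Lamc1 holds it at 5 positions, of which one pair overlaps by a base, and Lamb1 at a pair of positions on the reverse strand. The Lama4 promoter differs in composition: it has no GGGCGG, holds TATAAA 205 bases before the start, and its GC content was 55%, against 71.7% for Lamc1, 66.3% for Nid1, 63.7% for Lamb1 and a median of 51.7% over all promoters. CAGAC was found in 4 of the 7 (50.1% of all promoters) and AGGTCA in Lama4 and Hspg2 (16.2% of all promoters). Neither TGACTCA (4.63% of all promoters) nor CACGTG (6.42%) was found in any of the 7. These matches describe the letters in the windows only.

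Levels are given as CPM, reads of the gene scaled to a common library total. Totals ran from 13351137 to 21977663 reads, and each of the 8 genes had between 591 and 39740 reads in every library, far above the 3-read floor of 0.137 to 0.225 CPM. Transcripts of the mitochondrial genome took on average 26.3% of the reads in control libraries and 9.24%, 14.3% and 16.4% in the PAN, pioglitazone and GQ-16 libraries. With library totals as the scale, as deposited, the median of all genes therefore stood 0.28 higher on the log2 scale in PAN than in control, 0.22 higher in pioglitazone and 0.17 higher in GQ-16. Differences are as deposited unless said otherwise, and the main ones are given again under median-ratio scaling, which brings those medians to -0.003, 0.009 and 0.004. Of the PAN libraries 3 carry library numbers of 25 or higher in their titles, as does 1 library in each drug group and no control library. The labels do not say what the numbers mean. In PAN against control, values with a covariate for those numbers are given for Nid1, Lamb2, Lamb1 and the row AABR07073181.1. For the other genes only changes of sign are given, under the processing. Differences are on the log2(CPM + 1) scale, and adjusted p-values are from limma with Benjamini-Hochberg adjustment over all 13222 genes, called below 0.05.

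Transcripts of 1 nidogen and, on the deposited scale, 1 laminin beta chain were higher in PAN than in control, while the other 6 genes did not pass the test. Nid1 was 3.21-fold higher in PAN than in control and Lamb2 1.63-fold higher. All 8 genes were above 0 in this comparison, with a median log2 difference of 0.34 against 0.28 for all genes. Of the 8 genes 2 were called higher, against 21.7% of all genes, and under median-ratio scaling 1 of 8 (Nid1), against 7.12% of all genes. The groups did not overlap for 2 of 8 genes (Nid1 and Lamb2), against 22.4% of all genes, so the share of genes called is close to that of the whole table.

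**Figure D1:**
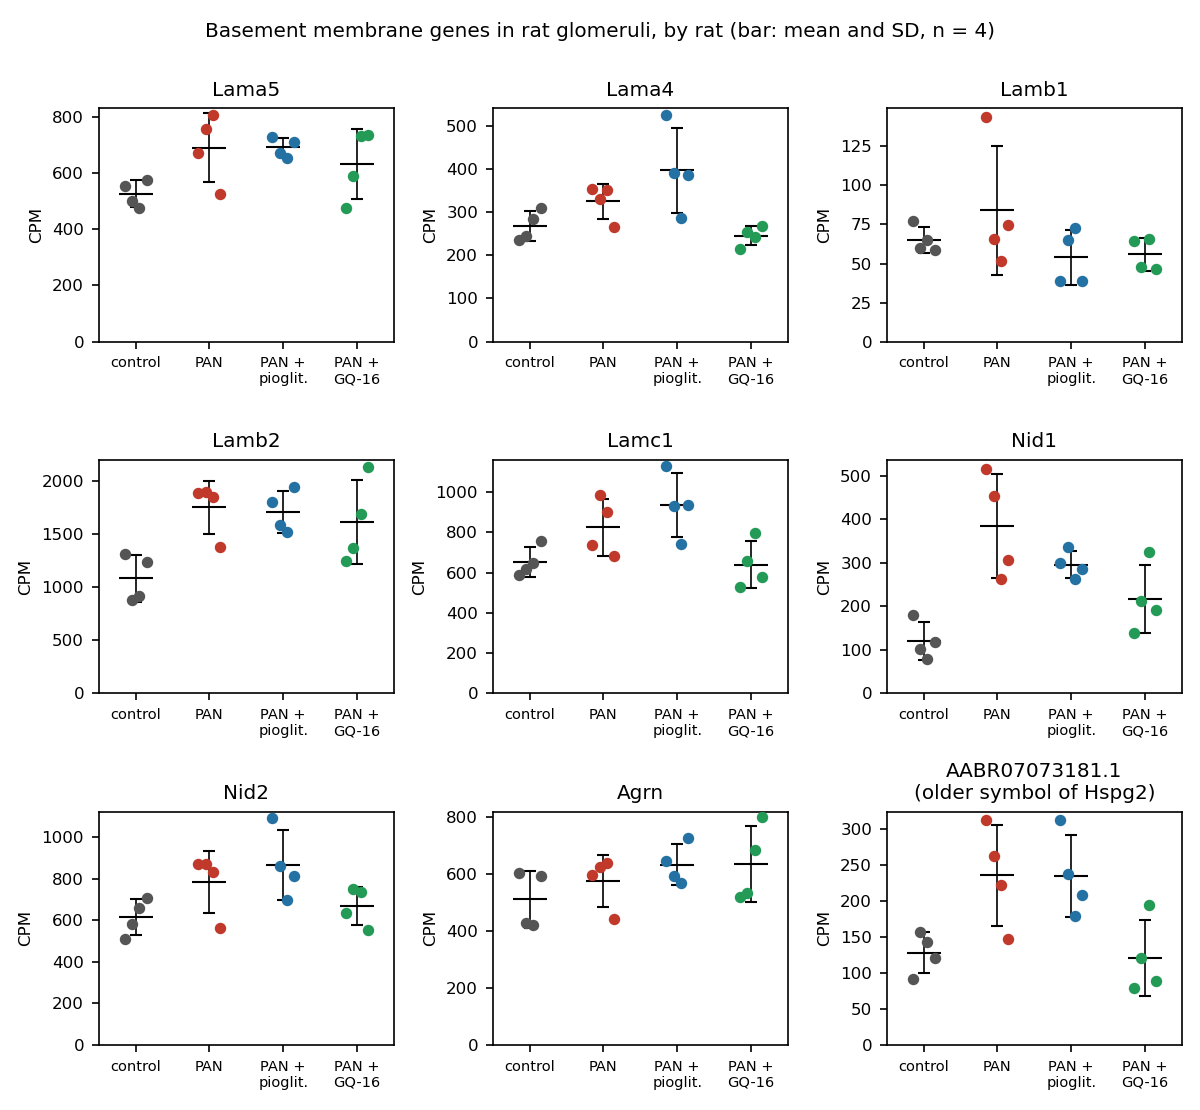
CPM (y axis, from 0) of each gene in every rat, by group (x axis), with 1 point per rat and bars for the mean and SD (n = 4). For Nid1 the 4 control rats lie between 79.0 and 180 CPM and the 4 PAN rats between 261 and 514 CPM, while for Agrn all groups overlap.

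Nidogen-1, encoded by Nid1 (ENSRNOG00000002461), is the widely expressed laminin-collagen linker. Its level was 180, 102, 79.0 and 117 CPM in the control rats and 514, 452, 261 and 305 CPM in the PAN rats. Every PAN rat was above every control rat, on both scales. The group means were 120 ± 43.3 and 383 ± 119 CPM (SD, n = 4 each), a log2 difference of 1.68 (SE 0.28, 95% confidence interval 1.10 to 2.27, limma adjusted p = 0.00132) and of 1.38 under median-ratio scaling (adjusted p = 0.00428). With the library-number covariate it was 1.64 (limma adjusted p = 0.0142). Without the 3 libraries of over 30% mitochondrial reads (control 2, control 3 and GQ-16 2) it was 1.34 and no longer called (adjusted p = 0.0854), and among libraries numbered 15 or lower, which hold 1 PAN rat, it was 1.41 (adjusted p = 0.268).

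Nidogen-2, encoded by Nid2 (ENSRNOG00000000341), binds the same partners. Its level was 508, 584, 660 and 706 CPM in control and 870, 871, 833 and 564 CPM in PAN. In PAN 3 rats lay above every control rat, and the rat PAN 4 lay within the control range. The means of 615 ± 87.1 and 785 ± 148 CPM differed by 0.34 on the log2 scale (adjusted p = 0.169). That difference was 0.04 with median-ratio scaling. The ratio of Nid1 to Nid2 within a library, which does not depend on the library total, had a mean log2 value of -2.42 ± 0.66 in control and -1.07 ± 0.41 in PAN. The difference of 1.35 gave p = 0.0571 in a two-sided exact permutation test over 4 against 4 rats, whose smallest possible p is 0.0286, and an adjusted p of 0.229 over the 24 ratio tests made. Of the 8 values, control 1 (-1.50) and PAN 3 (-1.67) were the only ones out of order between the groups.

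Laminin beta-2, encoded by Lamb2 (ENSRNOG00000047768), is the beta chain of laminin-521, and its loss causes congenital nephrotic syndrome in Pierson syndrome. Its level was 1313, 876, 916 and 1239 CPM in control and 1888, 1898, 1853 and 1376 CPM in PAN. All PAN rats were above all control rats, PAN 4 by the least. The means of 1086 ± 222 and 1754 ± 252 CPM differed by 0.70 (SE 0.21, limma adjusted p = 0.0287). With median-ratio scaling the Lamb2 difference was 0.40 (adjusted p = 0.126) and with the library-number covariate 0.38 (limma adjusted p = 0.374), and the call also ended without any 1 of 5 rats (control 2, control 3, PAN 1, PAN 2 or PAN 3).

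Laminin beta-1, encoded by Lamb1 (ENSRNOG00000005678), is the beta chain of laminin-511 and laminin-411. Its level was 77.1, 59.6, 64.8 and 58.5 CPM in control and 144, 65.6, 51.7 and 74.5 CPM in PAN. The rat PAN 1 had the highest value of all 16, PAN 3 lay below every control rat, and the other PAN rats lay within the control range. The log2 difference of 0.26 (adjusted p = 0.457) became -0.04 under median-ratio scaling and 0.46 with the library-number covariate (limma adjusted p = 0.470). The log2 ratio of Lamb1 to Lamb2 was -4.05 ± 0.26 in control and -4.49 ± 0.65 in PAN, a difference of -0.44 (exact permutation p = 0.286). A level of the ratio also depends on the lengths of the transcripts, and its differences between groups do not.

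The remaining laminin chains and agrin did not pass the test in PAN against control. Lama5 (ENSRNOG00000053691), the alpha chain of laminin-521, was measured at 554, 499, 476 and 576 CPM in control and 670, 757, 806 and 524 CPM in PAN. Only PAN 4 lay within the control range, and the log2 difference was 0.37 (adjusted p = 0.103), or 0.07 under median-ratio scaling. Without PAN 4 it was 0.50 and called (limma adjusted p = 0.0403). Lamc1 (ENSRNOG00000002680), the gamma chain common to the trimers named here, was measured at 589, 617, 648 and 757 CPM in control and 736, 985, 902 and 680 CPM in PAN, and the log2 difference was 0.33 (adjusted p = 0.163; 0.03 under median-ratio scaling). The rats PAN 1 and PAN 4 lay within the control range.

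Lama4 (ENSRNOG00000000599), the alpha chain of laminin-411, was measured at 235, 246, 283 and 309 CPM in control and 353, 330, 350 and 264 CPM in PAN, and differed by 0.27 (adjusted p = 0.219; -0.03 under median-ratio scaling). Again PAN 4 was the only PAN rat within the control range. Agrn (ENSRNOG00000020205) was measured at 602, 428, 420 and 592 CPM in control and 595, 625, 638 and 443 CPM in PAN. The agrin groups overlapped in part, with PAN 2 and PAN 3 above every control rat and control 2 and control 3 below every PAN rat, and the difference was 0.18 (adjusted p = 0.459; -0.12 under median-ratio scaling). For Lama4, Lamb1 and Agrn the direction thus flipped between the scales. The interval of the agrin difference ran from -0.21 to 0.57 as deposited and from -0.40 to 0.15 under median-ratio scaling.

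The row AABR07073181.1 was measured at 91.1, 156, 142 and 121 CPM in control and 311, 261, 222 and 146 CPM in PAN. PAN 4 lay below control 2, and the other 3 PAN rats lay above every control rat. The log2 difference was 0.85 (SE 0.28, limma adjusted p = 0.042). It was 0.55 under median-ratio scaling (adjusted p = 0.276) and 0.81 with the library-number covariate (limma adjusted p = 0.264). The call held in only 1 of the 8 fits that each left out 1 rat, the fit without PAN 4.

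**Figure D2:**
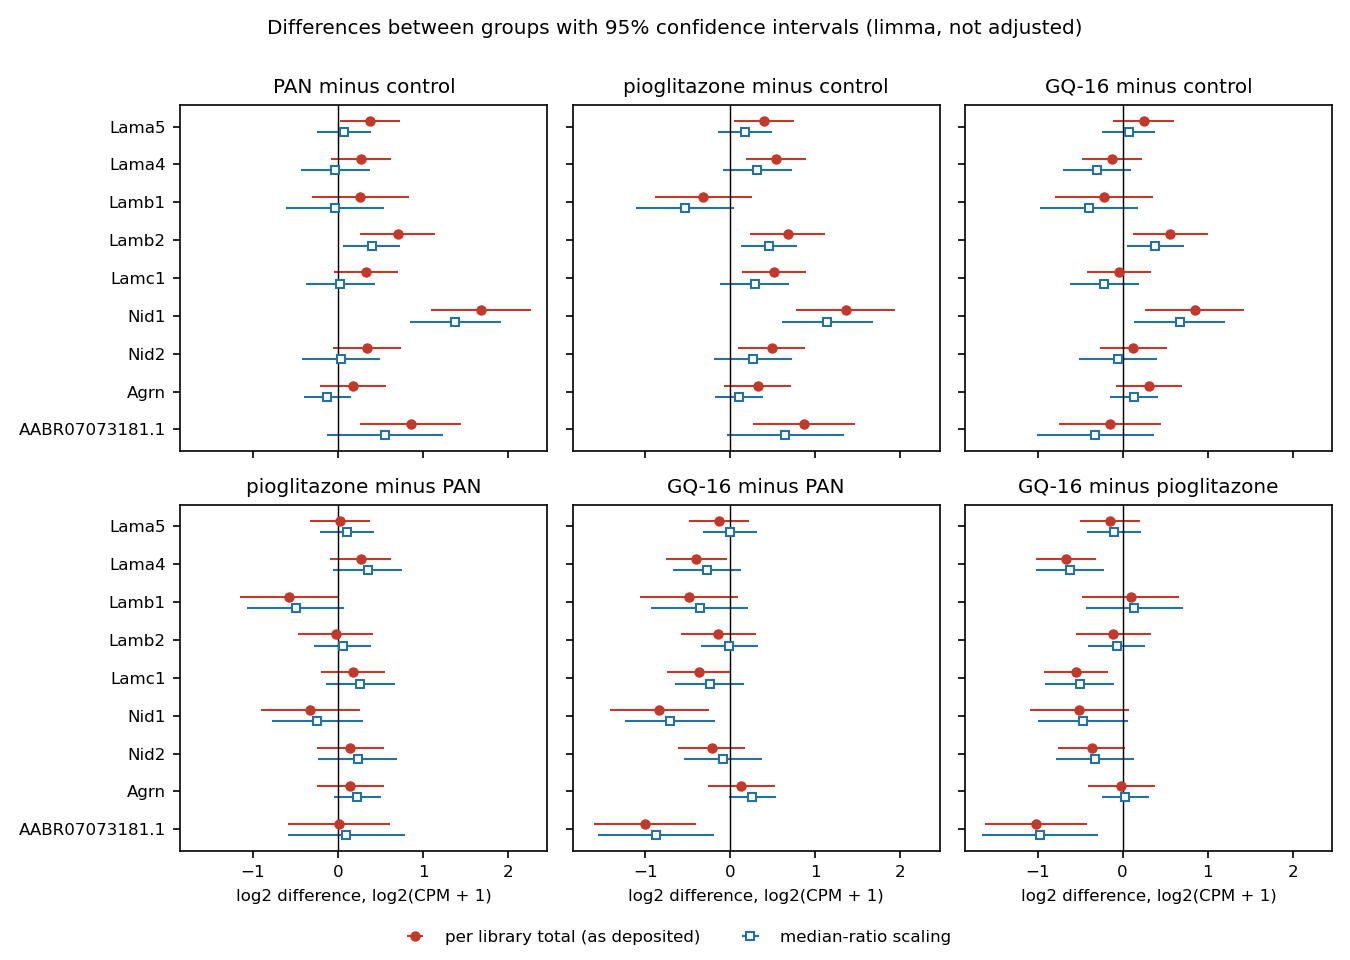
Log2 differences (x axis, log2(CPM + 1)) with 95% confidence intervals, not adjusted for multiple tests, for the 8 genes and the row AABR07073181.1 (y axis) in the 6 comparisons. Circles are as deposited, squares use median-ratio scaling. Nid1 stands at 1.68 and 1.38 in PAN minus control, and the square lies left of the circle for every gene in the 3 comparisons with control.

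Under pioglitazone, Nid1 remained above the healthy level and was the only one of the 8 genes called, 2.56-fold higher than in control. Its level was 299.7, 335, 262 and 285 CPM in the pioglitazone rats, a narrow range (mean 296 ± 30.8 CPM) that lay wholly above the control rats and within the PAN range. The log2 difference from control was 1.36 (SE 0.28, limma adjusted p = 0.0164), or 1.14 under median-ratio scaling (adjusted p = 0.0300). The call ended without control 2 (limma adjusted p = 0.0730), control 3 (0.0744) or pioglitazone 2 (0.0648), and without the 3 high-mitochondrial libraries (log2 difference 1.01, limma adjusted p = 0.443). Of the 8 genes 1 was called higher against control, beside 4.7% of all genes, and under median-ratio scaling again 1 of 8, beside 2.22% of all genes.

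The means of the laminin-521 chains lay above control in the pioglitazone rats, without passing the test. Lamb2 was measured at 1808, 1586, 1518 and 1943 CPM, and Lama5 at 728, 671, 654 and 709 CPM. Neither overlapped control as deposited, and only Lamb2 kept clear of it under median-ratio scaling. The log2 differences from control were 0.67 for Lamb2 (limma adjusted p = 0.0692), 0.39 for Lama5 (0.145) and 0.51 for Lamc1 (0.0950), whose rats overlapped control. Median-ratio scaling gave 0.45, 0.17 and 0.29. The Lamb2 difference was called without control 1 (limma adjusted p = 0.0357), and that of Lama4, 0.54 with all rats, was called without pioglitazone 3 (limma adjusted p = 0.0334). With Nid1, 3 of the 8 genes did not overlap control, beside 13.1% of all genes. Over the 8 genes the median difference from control was 0.50, beside 0.22 for all genes, and 7 of 8 were above 0 on both scales.

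Lamb1 was the exception in the pioglitazone rats. It was measured at 38.5, 65.3, 72.6 and 39.0 CPM, so that a pair of rats lay below every control rat and the other pair within the control range. The log2 difference was -0.32 against control (adjusted p = 0.400; -0.53 under median-ratio scaling). Against PAN it was -0.58, with an interval of -1.15 to -0.01 (limma adjusted p = 0.916). With median-ratio scaling this interval was -1.07 to 0.08, and without PAN 1 the difference was -0.28. The log2 ratio of Lamb1 to Lamb2 was -5.05 ± 0.64 with pioglitazone and -4.84 ± 0.52 with GQ-16, against -4.05 ± 0.26 in control. Those differences of -1.0 and -0.79 each gave an exact permutation p of 0.0571, and 0.229 after adjustment over the 24 ratio tests.

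**Figure D3:**
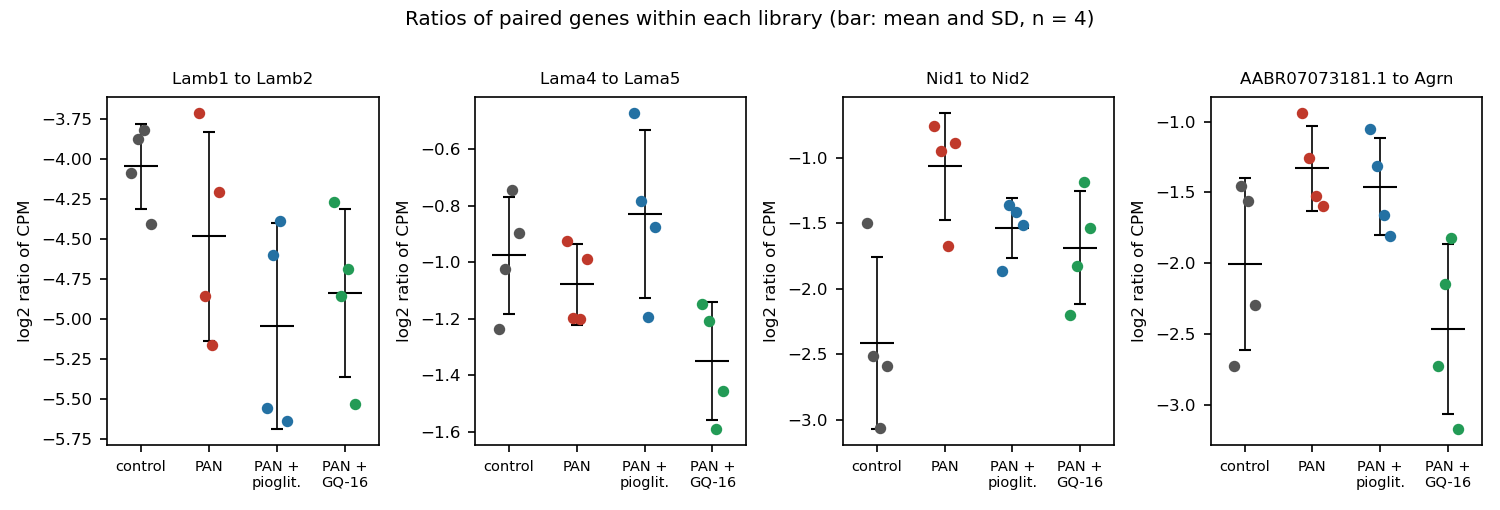
Log2 ratio of CPM within each library (y axis) for 4 pairs of genes with related roles, by group (x axis), with 1 point per rat and bars for the mean and SD (n = 4). The ratio of AABR07073181.1 to Agrn is lower in all 4 GQ-16 rats than in every PAN and pioglitazone rat.

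With GQ-16 none of the 8 genes was called against PAN or against control. By group mean Nid1, Lamb2 and Lama5 lay between PAN and control, Lama4, Lamb1 and Lamc1 below both, and Agrn above both. Nid2 lay between them as deposited and below both under median-ratio scaling (difference from control 0.12 and -0.05). Nid1 was measured at 138, 211, 325 and 191 CPM (mean 216 ± 78.8 CPM), so that 3 of 4 rats lay above all controls and 3 of 4 below all PAN rats. Its log2 difference was 0.85 from control (limma adjusted p = 0.115; 0.67 under median-ratio scaling) and -0.84 from PAN, with an interval of -1.42 to -0.25 (limma adjusted p = 0.424; -0.71 under median-ratio scaling). Of the 8 genes 0 were called higher or lower than control on either scale, while 0.151% of all genes were called higher as deposited and 0.666% with median-ratio scaling. Without control 1 the Nid1 difference from control was 1.06 and called (limma adjusted p = 0.0274), and without the 3 high-mitochondrial libraries it was 0.49 (adjusted p = 0.762). Lamb2 was widely spread at 1247, 1374, 1695 and 2138 CPM, with a difference from control of 0.56 (limma adjusted p = 0.140), or 0.39 with median-ratio scaling.

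Against PAN, 7 of the 8 genes were below 0 in the GQ-16 rats, with a median of -0.29 beside -0.11 for all genes, and 0 were called, beside 0.0151% of all genes (2 of the 8 had an unadjusted p under 0.05, Nid1 and Lama4). Lama4 was measured at 215, 254, 243 and 268 CPM, of which 3 rats lay below every PAN rat, and the difference from PAN was -0.40 (interval -0.75 to -0.04, limma adjusted p = 0.545), or -0.27 with median-ratio scaling. Lamc1 was measured at 527, 656, 795 and 579 CPM and Nid2 at 635, 749, 738 and 554 CPM, with differences from PAN of -0.37 and -0.22, or -0.24 and -0.09 with median-ratio scaling. Agrn was the exception, at 518, 533, 685 and 798 CPM and a difference of 0.13 (0.26 with median-ratio scaling and 0.34 with the library-number covariate). The row AABR07073181.1 was measured at 78.3, 120, 194 and 88.5 CPM, of which 3 rats lay below every PAN rat, and differed from PAN by -1.0, with an interval of -1.60 to -0.40 (limma adjusted p = 0.411). PAN against control and each drug against PAN share the PAN rats, so a difference between PAN and control and an opposite one between drug and PAN are not independent.

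Pioglitazone against PAN gave no called gene among the 8, beside 0% of all genes (495 genes had an unadjusted p under 0.05, and Lamb1 alone among the 8). The log2 differences ran from -0.58 for Lamb1 to 0.27 for Lama4, with a median of 0.08, beside -0.09 for all genes. For Nid1 the difference was -0.33 (interval -0.91 to 0.26), for Lamb2 -0.03 (-0.47 to 0.41), for Lama5 0.02 (-0.33 to 0.37) and for Agrn 0.14 (-0.25 to 0.54). The Lamb2 difference was 0.06 under median-ratio scaling and 0.19 with the library-number covariate, so its direction is not determined. With that covariate the Agrn difference was 0.35 (limma adjusted p = 0.852).

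The drug groups were also compared with each other, at doses that the labels do not give and may not match. None of the 8 genes was called, beside 0% of all genes (786 genes had an unadjusted p under 0.05, with Lama4 and Lamc1 among the 8). Lama4 was measured at 525, 389, 286 and 387 CPM with pioglitazone, above all 4 GQ-16 rats, and the difference of GQ-16 minus pioglitazone was -0.66 (interval -1.02 to -0.31, limma adjusted p = 0.724). Under median-ratio scaling it was -0.62 and the groups overlapped. Lamc1 was measured at 1130, 932, 741 and 938 CPM with pioglitazone, and differed by -0.55 (interval -0.93 to -0.17, limma adjusted p = 0.724). The row AABR07073181.1 was measured at 311, 237, 179 and 207 CPM with pioglitazone, and differed by -1.01 (interval -1.61 to -0.42, limma adjusted p = 0.724).

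For the other genes the interval of GQ-16 minus pioglitazone included 0: -0.51 for Nid1 (-1.09 to 0.07), -0.36 for Nid2 (-0.76 to 0.03), -0.15 for Lama5 (-0.50 to 0.21), -0.11 for Lamb2 (-0.55 to 0.33), 0.09 for Lamb1 (-0.48 to 0.67) and -0.01 for Agrn (-0.40 to 0.38). These intervals do not show that the drugs acted alike. Nid2 was measured at 1094, 861, 696 and 815 CPM and Agrn at 644, 591, 566 and 727 CPM with pioglitazone. Of the 4 within-library ratios, that of the perlecan row to agrin had the largest difference between the drugs. Its mean log2 value was -2.47 ± 0.60 with GQ-16, -1.46 ± 0.34 with pioglitazone and -1.33 ± 0.30 in PAN (SD, n = 4 each). The GQ-16 rats did not overlap either group. The differences of -1.14 from PAN and -1.01 from pioglitazone each reached the smallest exact permutation p of 0.0286, and 0.229 after adjustment. The ratio of Lama4 to Lama5 differed between the drugs by -0.52 (exact permutation p = 0.0571, adjusted p = 0.229).

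By group mean as deposited, Nid1 and Lamb2 were ordered PAN above pioglitazone above GQ-16 above control, and the highest mean of Nid1 was 3.20 times the lowest. Lama4 and Lamc1 were ordered pioglitazone above PAN above control above GQ-16, with 1.62 and 1.46 times between highest and lowest, and Lama5 and Nid2 pioglitazone, PAN, GQ-16, control. Lamb1 was highest in PAN and lowest with pioglitazone, and Agrn, with the narrowest span of 1.24 times, was highest with GQ-16. Under median-ratio scaling Nid1, Lamc1, Lama5 and Lamb1 kept these orders and 4 genes did not. For Lamb2 pioglitazone (1662) then stood above PAN (1601), for Lama4 control (305) above PAN (296), for Nid2 control (701) above GQ-16 (676), and for Agrn control (569) above PAN (525, scaled CPM). As deposited, for all 8 genes the rats of neighbouring groups in the order overlapped. For the row AABR07073181.1 only pioglitazone and control, next to each other in its order, did not.

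Across the 16 libraries under median-ratio scaling, 3 genes followed each other: Pearson's r was 0.88 for Lama4 with Lamc1, 0.87 for Lamc1 with Nid2 and 0.84 for Lama4 with Nid2, and 0.80, 0.87 and 0.87 after the group means were removed. Lamb2 and Agrn followed each other within groups, with r of 0.96, and less over all libraries (0.62). Lamb1 went against Agrn (-0.67) and Lamb2 (-0.56). The genes of the whole table most like each member were Adamts12, Vcl and Fbn1 for Nid1 (r of 0.96 each), Cd93, Tbxa2r and Sqor for Nid2 (0.94 to 0.95) and Epb41l2, Ppm1f and St3gal2 for Lama4 (0.94 to 0.96). For Lamb1 they were Pdgfra, C4a and Sema4a (0.89 to 0.91), for Lamb2 Csgalnact2, Mafk and Lrp5 (0.92 to 0.94), for Lamc1 Tmtc2, Spred1 and Itga9 (0.93 to 0.95), for Lama5 Mef2d, Zfp275 and Arhgef10 (0.85 to 0.87) and for Agrn Lats2, Mdfic and Triobp (0.88 to 0.90). These correlations describe 16 libraries that share their groups, depth and scaling.

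Genes of partner proteins were counted in the same way, beside the 21.7% of all genes called higher in PAN as deposited and the 7.12% under median-ratio scaling. Of the 8 basement membrane collagens 2 were called higher on both scales, Col4a1 (log2 difference 1.08, 0.78 under median-ratio scaling) and Col4a2 (1.03 and 0.73), the paired chains of the collagen network found in most basement membranes (limma adjusted p = 0.00486 for each as deposited). The chains typical of the mature glomerular membrane were not called: Col4a3 differed by 1.18 (adjusted p = 0.0775), Col4a4 by 1.0 (0.0794) and Col4a5 by 0.95 (0.110). These differences were similar in size to those of Col4a1 and Col4a2, so the calls do not show that the chains differed in their change. The collagens' median difference was 1.02, beside 0.28 for all genes.

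**Figure D4:**
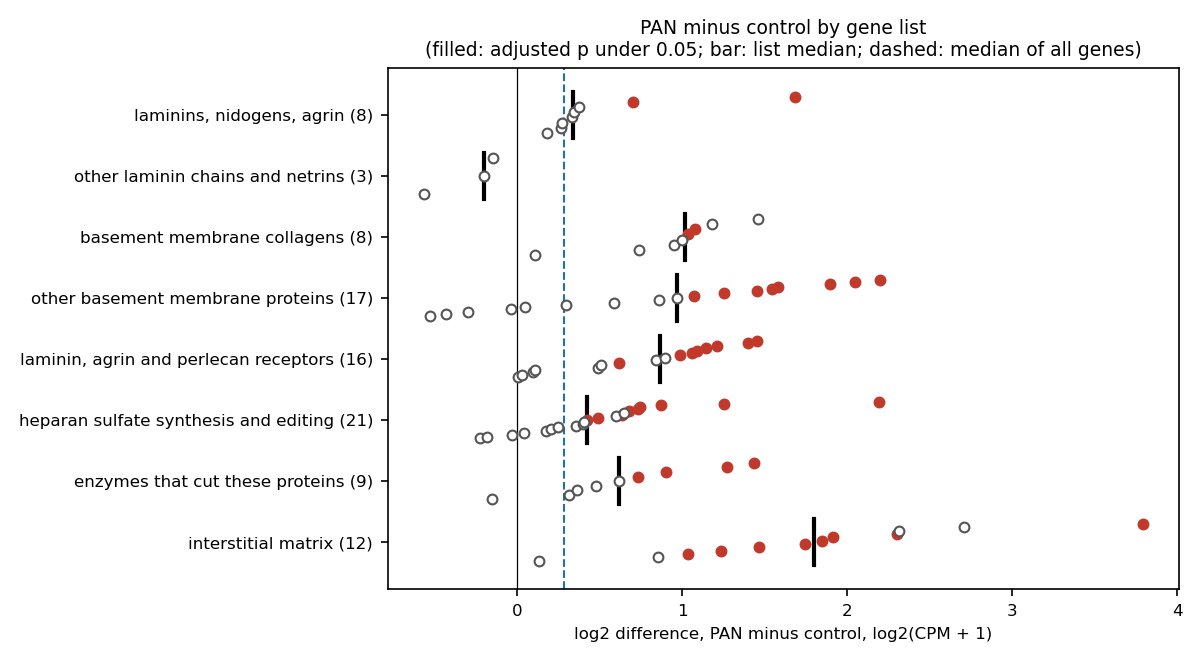
Log2 difference of PAN minus control (x axis) for each gene of 8 lists (y axis, number of genes measured in brackets), with filled points for limma adjusted p below 0.05, a bar for the list median and a dashed line for the median of all genes (0.28). The laminins, nidogens and agrin have a median of 0.34 and the basement membrane collagens 1.02.

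Among genes listed as receptors of laminin, agrin and perlecan, 8 of 16 measured (18 listed) were called higher and 5 under median-ratio scaling. Itga3 and Itgb1, the chains of the integrin by which podocytes hold laminin-521, rose by 1.40 (limma adjusted p = 0.0213) and 1.09 (0.0166), and were called under median-ratio scaling too (1.10 and 0.79). Dag1, dystroglycan, rose by 1.21 (limma adjusted p = 0.0420). Its difference under median-ratio scaling was 0.91, not called (adjusted p = 0.102). Robo1, on the list though not an established receptor of these proteins, rose by 1.45 (limma adjusted p = 0.00719). With median-ratio scaling its difference was 1.17, also called. With the library-number covariate none of the genes on this list was called. Of other basement membrane proteins, 8 of 17 measured (20 listed) were called higher, 5 under median-ratio scaling. The largest differences were in Ecm1 (2.20), Hmcn1 (2.05), which encodes hemicentin-1, and Smoc2 (1.90).

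Enzymes that build and edit heparan sulfate, the chains carried by agrin and perlecan, had 9 of 21 measured (25 listed) called higher and 5 under median-ratio scaling, with a median of 0.42. Ext1 and Ext2, which polymerise the chain, rose by 0.87 and 0.64 on the deposited scale (limma adjusted p = 0.00222 and 0.0136) and were called on both scales. Sulf1, which removes 6-O sulfate outside the cell, rose by 1.25 (limma adjusted p = 0.0246). Its difference under median-ratio scaling was 0.95, not called (adjusted p = 0.0571). Of enzymes that can cut these proteins, 4 of 9 measured (12 listed) were called higher and 3 under median-ratio scaling: Mmp14 rose by 1.43, Mmp2 by 1.27 and Bmp1 by 0.90. Interstitial matrix genes had 8 of 12 measured (18 listed) called higher and 6 under median-ratio scaling, and the largest difference among them was in Col1a1 (3.79), whose mean was 580.0 ± 792 CPM in the PAN rats and 27.4 ± 22.1 CPM in the controls (SD, n = 4 each).

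Other laminin chains and netrins had 3 of 9 listed genes in the table, all below 0. Ntn4, which encodes netrin-4, a protein that binds the laminin gamma chain and disrupts laminin networks, had a mean of 288 ± 38.8 CPM in control and 196 ± 40.6 CPM in PAN, a log2 difference of -0.57 (adjusted p = 0.0565). Under median-ratio scaling it was lower by 0.87 and called (limma adjusted p = 0.0170). Lama1 differed by -0.20 (adjusted p = 0.687). In none of these 7 lists was a gene called in either drug group against PAN, on either scale.

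The counts of called partner genes in PAN against control depended on the setting and the libraries kept, and so did the calls over all genes. With the library-number covariate the partner counts became 2 of 8 for collagens, 0 of 16 for receptors and 3 of 17 for other basement membrane proteins. Heparan sulfate enzymes then had 1 of 21, cutting enzymes 2 of 9 and interstitial matrix 4 of 12. Over all genes 393 were called with the covariate, against 2943 as deposited. With 1 rat left out, the calls over all genes numbered 4964 without control 1, 860 without control 2 and 838 without control 3. They numbered 1049 without PAN 1 and 1317 without PAN 2. In fits of this kind the collagen count ran from 2 to 6, with 6 reached without control 1. Receptors ran from 3 to 10, with 3 without control 2, control 3 or PAN 1 and 5 without PAN 2. Heparan sulfate enzymes ran from 2 to 14, with 14 without control 1, 2 without control 2 or control 3, 3 without PAN 1 and 4 without PAN 2. Other basement membrane proteins ran from 5 to 8, with 5 without control 2, control 3 or PAN 2, cutting enzymes from 3 to 5 and interstitial matrix from 6 to 10. Without the 3 high-mitochondrial libraries only other basement membrane proteins kept a call, 1 of 17, where 56 of all genes were called. Libraries numbered 15 or lower hold 1 PAN rat, so that setting cannot show whether the calls last.

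Markers of cell types were summed and counted as well. Among the mesangial, podocyte, endothelial and parietal lists, only the mesangial one stood far above the share of all genes called higher in PAN. The 7 mesangial markers of 7 listed were Pdgfrb, Itga8, Gata3, Serpine2, Agtr1a, Thy1 and Des. Des is not a marker of mesangial cells alone, and its part in the sum was not separated. The summed level ran from 389 to 1032 CPM in control, 1853 to 2639 in PAN, 1383 to 1953 with pioglitazone and 928 to 1576 with GQ-16. On both scales all 7 were called higher than in control for PAN and for pioglitazone, and 0 for GQ-16. The medians of the mesangial sums were ordered PAN, pioglitazone, GQ-16, control, as were the group means of Nid1 and Lamb2. The medians of the smooth muscle, striated muscle and leukocyte sums, described below, had the same order. The perlecan row was ordered PAN, pioglitazone, control, GQ-16. The part of mesangial cells in the Nid1 and perlecan row results was not tested. The 11 podocyte markers of 11 listed summed to 2942 to 10293 CPM in control, 8246 to 11902 in PAN, 5176 to 13224 with pioglitazone and 4750 to 15974 with GQ-16. In PAN 3 of the 11 were called higher (1 under median-ratio scaling), near the 21.7% and 7.12% of all genes.

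Endothelial markers, 7 of 8 listed, summed to 5518 to 7917 CPM in control and 4970 to 7834 in PAN. The sums were 5767 to 10539 with pioglitazone and 5191 to 6796 with GQ-16. In PAN 1 of the 7 was called higher as deposited, beside 21.7% of all genes, and 0 under median-ratio scaling, beside 7.12%. Their median log2 difference was -0.24 as deposited, beside 0.28 for all genes. Fibroblast markers, 3 of 5 listed, summed to 18.7 to 73.0 CPM in control and 107 to 1858 in PAN, and smooth muscle markers, 3 of 4, to 22.2 to 58.3 and 137 to 604 CPM. Striated muscle markers, 3 of 5, summed to 6.04 to 26.0 CPM in control and 236 to 430 CPM in PAN. Leukocyte markers, 5 of 6, summed to 105 to 133 CPM in control and 124 to 351 CPM in PAN. Proximal tubule markers, 7 of 7, summed to 3513 to 7790 CPM in control and 2634 to 8907 CPM in PAN. In PAN 3 of 3 smooth muscle, 2 of 3 striated muscle, 1 of 3 fibroblast and 3 of 5 leukocyte markers were called higher than in control, and 2, 2, 1 and 0 under median-ratio scaling. The shares of all genes called higher were 21.7% and 7.12% on these scales. In the pioglitazone rats, where Nid1 was also called, the marker counts were 1, 2, 1 and 0 on both scales, beside 4.7% and 2.22% of all genes. In the GQ-16 rats the marker counts were 0, 1, 1 and 0 as deposited, beside 0.151% of all genes. Under median-ratio scaling they were 0, 2, 1 and 0, beside 0.666%. The sums in the pioglitazone rats were 84.9 to 122 CPM for smooth muscle, 66.4 to 380 for striated muscle, 166 to 298 for fibroblast and 96.7 to 184 for leukocyte markers. In the GQ-16 rats they were 48.4 to 143, 47.0 to 232, 180 to 915 and 92.8 to 141 CPM. Distal nephron and collecting duct markers, 6 of 6, summed to 898 to 1587 CPM in control, 482 to 1026 in PAN, 553 to 665 in the pioglitazone rats and 612 to 1135 in the GQ-16 rats. Of these, 3 were called lower in PAN than in control (2 under median-ratio scaling) and 2 in the pioglitazone rats, on both scales. Parietal epithelial markers, 5 of 6, summed to 103 to 151 CPM in control and 102 to 160 CPM in PAN, with 1 called higher in PAN, as deposited only. Pecam1, a defining endothelial marker, was the listed endothelial gene not found in the table. No listed marker in the table was at 0 in any library. The part of these other cell types in the results on laminins, nidogens and agrin was not tested.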

How the data were processed

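The deposited table holds log2 CPM values for 13222 genes in 16 libraries. Per the submitters' processing notes, HISAT2, featureCounts of Subread and limma were used with genome build Rnor_6.0; versions and the annotation are not given in the sources used here. The authors' log2 values have 0.5 added to each count and 1 to each total, and undoing this gave whole reads, within 0.05 of a read, for 100% of values. Values were converted to CPM, and 1 was added before log2.

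A limma 3.58.1 model (R 4.3.3) with 4 group means and a variance trend was fitted to all libraries (12 residual degrees of freedom) and tested on simulated data. Within-library ratios were tested by exact permutation. The 9 genes were all to be named, the lists described by counts, and the 3 most correlated genes named per member. Members, lists and tests were chosen with earlier results of these data known. Replicate numbers follow accession order and pair no libraries. Reads carry no molecular identifiers, so the 3-read floor covers counting error only. RefSeq names and promoters are from GRCr8, and no gene coordinates of the files' build were used. Alternatives were 8 planned and 2 chosen after seeing the data.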

Additional observations from a re-analysis of the deposited data

Results flagged for a closer look

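In the PAN group 1 rat, PAN 4, stood apart from the other 3 for a pair of genes. Its Lamb2 level was 10.43 on the log2 CPM scale, against 10.86 to 10.89 in the others, and its Nid2 level was 9.14, against 9.70 to 9.77. Of the 52 groups of 4 values examined 2 were flagged in this way, and chance flags about 1 in 20 groups (2.6 here). PAN 4 is the PAN library with a number of 15 or lower, and the other 3 carry numbers of 25 or higher. Without it the log2 difference between PAN and control was 0.81 for Lamb2 (limma adjusted p = 0.0192) and 0.49 for Nid2 (limma adjusted p = 0.0561).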

How the results depend on the processing

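In PAN minus control, 2 of the 8 genes were called as deposited. The count was 1 under median-ratio scaling, quantile normalization, limma voom, a fit to those groups alone, and the library-number covariate with or without median-ratio scaling. It was 0 without the libraries of over 30% mitochondrial reads. Libraries numbered 15 or lower hold 1 PAN rat, so a count among them cannot show whether the calls last. The count ran from 1 to 3 when 1 rat was left out. For pioglitazone minus control the count of 1 became 0 without the high-mitochondrial libraries and ran from 0 to 2 with 1 rat left out, and for GQ-16 minus control from 0 to 1. Over all genes the calls in PAN minus control ran from 56 to 2962 across these settings, against 2943 as deposited, in pioglitazone minus control from 0 to 686, against 659, in GQ-16 minus control from 0 to 144, against 20, and in GQ-16 minus PAN from 0 to 2, against 2. With 1 rat left out they ran from 838 to 4964, 48 to 1660, 0 to 1572 and 0 to 9. The causes were not tested, and the settings that leave out libraries also rest on fewer of them.

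Of 540 log2 differences recomputed (54 results), 478 kept direction and side of the threshold, 18 lost the call and 44 changed sign. None of those 44 was called as deposited. Under median-ratio scaling these were in PAN minus control Lama4 at -0.030, Lamb1 at -0.036 and Agrn at -0.12, in pioglitazone minus PAN Lamb2 at 0.055, in GQ-16 minus pioglitazone Agrn at 0.030 and in GQ-16 minus control Nid2 at -0.053. Under quantile normalization these were in PAN minus control Lama4 at -0.042, Lamb1 at -0.019, Lamc1 at -0.028, Nid2 at -0.0062 and Agrn at -0.18, in GQ-16 minus pioglitazone Agrn at 0.044 and in GQ-16 minus control Nid2 at -0.084. With limma voom these were in PAN minus control Lama4 at -0.041, Lamb1 at -0.049 and Agrn at -0.13, in pioglitazone minus PAN Lamb2 at 0.061, in GQ-16 minus PAN Lama5 at 0.015, in GQ-16 minus pioglitazone Agrn at 0.032 and in GQ-16 minus control Nid2 at -0.039. With the library-number covariate these were in PAN minus control Agrn at -0.13, in pioglitazone minus PAN Lamb2 at 0.19 and in GQ-16 minus PAN Lama5 at 0.017 and Lamb2 at 0.075. With both covariate and median-ratio scaling these were in PAN minus control Lama5 at -0.052, Lama4 at -0.074 and Agrn at -0.34, in pioglitazone minus PAN Lamb2 at 0.21, in GQ-16 minus PAN Lama5 at 0.082 and Lamb2 at 0.14, in GQ-16 minus pioglitazone Agrn at 0.030 and in GQ-16 minus control Nid2 at -0.035. Among libraries numbered 15 or lower these were in PAN minus control Lama5 at -0.0013, Lama4 at -0.013, Nid2 at -0.11 and Agrn at -0.18, in pioglitazone minus PAN Lamb2 at 0.25, in GQ-16 minus PAN Lama5 at 0.17, Lamb2 at 0.052 and Nid2 at 0.32 and in GQ-16 minus control Lamc1 at 0.0015. Without the libraries of over 30% mitochondrial reads these were in PAN minus control Agrn at -0.068, in GQ-16 minus pioglitazone Agrn at 0.062 and in GQ-16 minus control AABR07073181.1 at 0.074.

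When 1 rat was left out, 390 of 432 values kept direction and side, 15 lost a call, 4 gained one and 23 changed sign. In PAN minus control the range was -0.031 to 0.46 for Lamb1. In pioglitazone minus PAN the range was -0.11 to 0.10 for Lama5, -0.14 to 0.028 for Lamb2, -0.0052 to 0.24 for Nid2, -0.20 to 0.17 for AABR07073181.1 and -0.27 to 0.0013 for the ratio of AABR07073181.1 to Agrn. In GQ-16 minus PAN the range was -0.25 to 0.00066 for Lama5. In GQ-16 minus pioglitazone the range was -0.044 to 0.25 for Lamb1, -0.26 to 0.0018 for Lamb2, -0.13 to 0.075 for Agrn and -0.32 to 0.024 for the ratio of Nid1 to Nid2. In GQ-16 minus control the range was -0.15 to 0.047 for Lamc1 and -0.41 to 0.026 for AABR07073181.1. Nid1 in PAN minus control kept its call in all 8 such fits (1.51 to 1.90, adjusted p 0.000533 to 0.00754), and lost it in 2 of the 10 other settings, among libraries numbered 15 or lower and without the high-mitochondrial libraries. No paired analysis was possible because the labels carry no replicate numbers, and those used here follow accession order and only name the rats. Depth limits none of these genes, each of which had at least 591 reads per library.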
